A study of Mus musculus with 6 samples.

Results

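The 10 genes described here encode the chains of the major histocompatibility complex (MHC) class I molecule and the proteins that load it with peptide: the heavy chains H2-K1, H2-D1, H2-T23 and H2-Q4, the light chain B2m, the transporter subunits Tap1 and Tap2, the bridging protein Tapbp, the trimming enzyme Erap1 and the transcriptional activator Nlrc5. They were taken by symbol from a table of 16217 genes, and all 10 had a row. The cells are labelled Hepa1-6, a mouse hepatoma line, and carry a lentiviral short hairpin RNA after puromycin selection. The hairpin was the control shNC in 3 libraries and was directed against Ero1a in the other 3 (shERO1A), so each group is 1 stably transduced line, and whatever else separates both lines cannot be told apart from the loss of Ero1a. Messenger RNA was sequenced, and levels are in FPKM, reads scaled to gene length and library size. The shERO1A libraries are named KD1, KD2 and KD3 after the columns of the table. Nothing in the labels says that libraries of a group came from separate cultures, so the p-values cover variation among the libraries as sequenced, possibly only technical.

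Class I molecules show peptides from inside the cell to CD8 T cells. Proteasomes cut proteins in the cytosol, TAP1 and TAP2 together pump the fragments into the endoplasmic reticulum, ERAP1 trims them, and tapasin (the product of Tapbp) holds an empty heavy chain with its light chain beta-2 microglobulin next to the transporter until a peptide binds. Heavy chains need disulfide bonds to fold, and tapasin itself is joined by a disulfide bond to the isomerase ERp57 (Pdia3); Ero1a encodes an oxidase that recharges disulfide isomerases in the same compartment. NLRC5 raises transcription of the heavy chains, B2m and the loading genes through a promoter unit that the RFX, CREB/ATF and NF-Y factors bind, and interferons raise it further through IRF factors and NF-kB.

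Letters of this unit can be read in the promoters of the heavy chains and B2m, which are shown because the levels of these genes are the core of the measurements. Each line gives the 200 bases before the annotated start from RefSeq on GRCm38.p6, 5′ to 3′ on the strand of the gene. Capitals mark letters of NF-kB-like sites (GGGNNNTCC), IRF-like sites (AANNGAAA), the core of the X2 element (TGACG), the Y element of NF-Y (CCAAT, which reads ATTGG on the other strand) and TATAAA, searched on both strands, where overlapping matches of 1 kind count as 1 site and sites of different kinds may adjoin.
H2-K1 (chr17:34000348-34000547, minus strand): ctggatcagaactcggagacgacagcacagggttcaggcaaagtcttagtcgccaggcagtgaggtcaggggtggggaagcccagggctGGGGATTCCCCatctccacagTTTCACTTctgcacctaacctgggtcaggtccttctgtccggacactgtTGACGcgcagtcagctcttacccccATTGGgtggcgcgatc
H2-D1 (chr17:35262894-35263093, plus strand): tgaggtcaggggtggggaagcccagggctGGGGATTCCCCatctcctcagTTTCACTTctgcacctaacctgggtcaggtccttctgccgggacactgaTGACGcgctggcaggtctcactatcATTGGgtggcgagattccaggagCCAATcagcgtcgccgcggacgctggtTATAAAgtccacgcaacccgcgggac
H2-Q4 (chr17:35379417-35379616, plus strand): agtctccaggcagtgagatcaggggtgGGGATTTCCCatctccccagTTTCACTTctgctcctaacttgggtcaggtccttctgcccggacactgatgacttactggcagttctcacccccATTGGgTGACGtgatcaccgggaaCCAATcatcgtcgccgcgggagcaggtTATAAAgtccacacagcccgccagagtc
H2-T23 (chr17:36032702-36032901, minus strand): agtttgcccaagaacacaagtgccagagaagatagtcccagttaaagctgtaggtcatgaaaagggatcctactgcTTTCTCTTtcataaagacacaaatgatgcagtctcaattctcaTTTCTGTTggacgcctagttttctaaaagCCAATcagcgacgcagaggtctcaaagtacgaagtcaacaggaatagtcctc
B2m (chr2:122147487-122147686, plus strand): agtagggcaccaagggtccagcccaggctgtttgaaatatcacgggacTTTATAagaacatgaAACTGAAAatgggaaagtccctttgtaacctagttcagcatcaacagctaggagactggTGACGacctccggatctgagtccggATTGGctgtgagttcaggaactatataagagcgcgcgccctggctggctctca

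The stretches of H2-K1 and H2-D1 shared an exact run of 46 bases, which holds the NF-kB-like site GGGGATTCCCC. In both genes, and in B2m, TGACG stood 20 bases ahead of ATTGG. That pair, at a distance of at most 30 bases on 1 strand, was found in 0.844% of 27025 promoters when the 250 bases before the start were searched. In H2-Q4 the letters TGACG came after ATTGG and not before it, and in H2-T23 they had no match. H2-K1, H2-D1 and H2-Q4 each had 1 NF-kB-like site (15.0% of promoters) and 1 IRF-like site (21.6% of promoters). H2-T23 had 2 IRF-like sites and B2m 1. The letters GGGNNNTCC fix the spacing, so a stretch such as gggaaagtccc in B2m was not counted as an NF-kB-like site. TGACG alone was found in 17.9% of promoters, CCAAT in 34.5% and TATAAA in 13.0%. The NF-kB-like site, the IRF-like site and the pair occurred together in 10 promoters, 0.0370% of all, among them H2-K1, H2-D1 and the class I gene H2-Q7. For H2-K1 the first start listed was used, and its TATAAA lies in the 50 bases after that start. Tap1, Tapbp and Erap1 also had promoter entries, and Tap2 and Nlrc5 did not. Those of Tap1, Tapbp and Erap1 held no NF-kB-like site, no IRF-like site and not the pair. Tap1 had 1 TGACG and 1 CCAAT site, Tapbp had 2 CCAAT sites, and Erap1 had no match of any kind. A match of letters describes the sequence and shows no binding.

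The libraries held between 38290505 and 39646829 reads over the genes of the table. Averaged over all libraries, 10296 genes reached 1 FPKM, and these were tested with limma on log2(FPKM + 1), with p-values adjusted by the Benjamini-Hochberg method over all of them. Ero1a stood at 40.3% of its control level in shERO1A (log2 fold change -1.26, SE 0.05, limma adjusted p = 6.21e-06), so the libraries followed their labels. KD3 stood apart from KD1 and KD2: the median log2 ratio of KD3 to their mean was 0.16 over the shortest tested genes (up to 2109 bases) and -0.10 over the longest (from 5718 bases). Among 14 hepatocyte and hepatoma markers, Alb, Apoa1 and Ttr have no row among the 16217 genes. Afp was at 1.21 to 3.14 FPKM, and Hnf4a, Foxa2, Apob, Trf, Krt8 and Krt18 were all measured. Of 9 tested, Trf, Hnf4a and Krt8 were lower in shERO1A, beside 8.23% of all tested genes. The summed level was 2572 to 2633 FPKM in shNC and 2072 to 2266 FPKM in shERO1A. Most of it was keratin, with means in shNC and shERO1A of 1260 and 995 FPKM for Krt8 and 1179 and 1038 FPKM for Krt18. The intestinal markers Krt20 and Cdh17 were at 166 to 195 and 220 to 234 FPKM. Of 6 intestinal markers tested Cdx2, Vil1 and Tspan8 were lower (log2 fold change -0.71, -0.73 and -0.52), where 8.23% of all tested genes were lower by an adjusted p under 0.05, and the list summed to 503 to 505 FPKM in shNC and 480 to 511 FPKM in shERO1A. Of 8 immune cell markers, Cd3e, Adgre1 and Lyz2 have no row either, and Ptprc (CD45) was at most 0.0663 FPKM. Their summed level was 2.34 to 2.50 FPKM in shNC and 2.26 to 3.20 FPKM in shERO1A. Endothelial markers summed to 9.97 to 10.7 and 17.9 to 19.0 FPKM, nearly all of it Cdh5, with Pecam1 at most 0.151 FPKM, and fibroblast markers to 0.878 to 1.64 and 0.934 to 1.24 FPKM. Cdh5, the 1 endothelial marker tested, was higher in shERO1A (log2 fold change 0.79, limma adjusted p = 7.66e-05), beside 9.48% of all tested genes. The part of these markers in the results was not tested.

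Levels of the 10 genes spanned more than 3 orders of magnitude, and Tap2 alone lay under 1 FPKM in every library. In shNC, mean levels ran from B2m (1836 FPKM) over H2-D1 (831), H2-K1 (550), Tapbp (89.5), H2-T23 (71.3), H2-Q4 (51.5), Tap1 (20.7), Nlrc5 (10.7) and Erap1 (9.30) down to Tap2 (0.465 FPKM). B2m lay above 99.9% of tested genes, and H2-D1 and H2-K1 above 99.4% and 99.0%. The same order held in shERO1A. Neighbours in it were separated in every library of a group, with the exception of Nlrc5 and Erap1 in shERO1A, whose ranges of 7.78 to 11.8 and 7.92 to 8.83 FPKM overlapped.

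**Figure D1:**
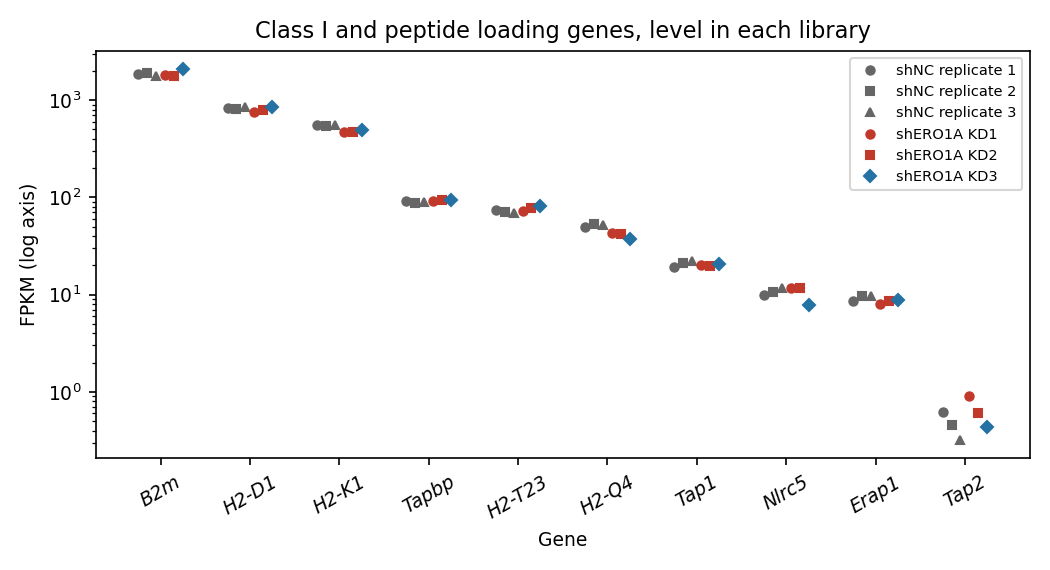
Level of the 10 genes in each of the 6 libraries, in FPKM on a log axis, ordered by the shNC mean; each point is 1 library. B2m, H2-D1 and H2-K1 lie at 471 FPKM or more in every library and Tap2 at 0.900 FPKM or less.

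Of the 9 members tested, 2 were lower in shERO1A and none was higher. By limma's adjusted p under 0.05, 17.7% of all tested genes were called, 9.48% as higher and 8.23% as lower, so 2 calls of 9 members (22.2%) is near the background. At an unadjusted p under 0.05 the members numbered 1 higher (H2-T23) and 2 lower, and both limma-voom and the authors' deposited table also gave 2 lower and none higher. The median log2 fold change of the 9 members was -0.06, beside 0.013 over all tested genes. Libraries of both groups did not overlap in 3 of 9 members, H2-K1, H2-Q4 and Tapbp, where 40.0% of tested genes showed no overlap. Tap2 fell under the filter of 1 FPKM. The count of 2 lower members changed when single libraries were left out. There were 1 without shNC replicate 1, 0 without shNC replicate 2 or 3, 1 without KD1 or KD2, and 3 without KD3. Over all tested genes, lower calls changed too, from 847 to 482, 468 and 458 without shNC replicates 1, 2 and 3. They numbered 793, 578 and 1341 without KD1, KD2 and KD3.

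The classical heavy chains present peptides to CD8 T cells and were the most abundant of the 4 measured. H2-K1 stood at 554, 538 and 556 FPKM in the shNC libraries, against 471, 474 and 492 FPKM in shERO1A (KD1, KD2 and KD3). Every shERO1A library lay below every shNC library; in bulk RNA, fewer expressing cells and less RNA per cell cannot be told apart. The mean of 479 ± 11.4 FPKM (SD, n = 3) was 0.872 of the control mean of 550 ± 9.81 FPKM. On the log2(FPKM + 1) scale the fold change was -0.20 with a 95% interval from -0.31 to -0.08 (SE 0.05, limma adjusted p = 0.0320). Over 14 alternatives the log2 fold change of H2-K1 stayed between -0.25 and -0.19, while its adjusted p ranged from 0.000200 to 0.152. The call was lost when a single library other than KD3 was left out, with an adjusted p of 0.140, 0.113 and 0.152 without shNC replicates 1, 2 and 3 and of 0.0678 and 0.107 without KD1 and KD2. Testing all genes unfiltered also ended it (adjusted p = 0.0572), and without KD3 it was 0.000416.

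H2-D1, the other classical heavy chain, stood at 838, 812 and 842 FPKM in the shNC libraries, against 759, 789 and 853 FPKM in shERO1A. KD1 and KD2 lay below all shNC libraries, and KD3 lay above them. The means were 831 ± 16.0 and 800 ± 48.3 FPKM (SD, n = 3), with a log2 fold change of -0.06 and an interval from -0.20 to 0.09 (limma adjusted p = 0.586). Without KD3 the gene passed the test at a log2 fold change of -0.10 (interval -0.17 to -0.04, adjusted p = 0.0280), when 27.7% of all genes were called. Removing a trend with gene length from each library gave an adjusted p of 0.0450, and over all 14 alternatives it ranged from 0.0280 to 0.869.

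Of the non-classical chains, H2-Q4 passed the test and H2-T23 did not. H2-Q4, a chain of the Q region, stood at 49.4, 53.6 and 51.6 FPKM in the shNC libraries, against 43.5, 41.7 and 37.3 FPKM in shERO1A. The groups did not overlap, and KD3 was the lowest library. H2-Q4 fell to 0.793 of control, with means of 51.5 ± 2.08 and 40.8 ± 3.21 FPKM (SD, n = 3; log2 fold change -0.33, interval -0.48 to -0.18, SE 0.06, limma adjusted p = 0.0111). The call was kept in 12 of 14 alternatives and missed when shNC replicate 2 or 3 was dropped (adjusted p = 0.0589 and 0.0539), over a range from 0.000116 to 0.0589.

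H2-T23 encodes Qa-1, which shows signal peptides of other class I chains to the CD94 and NKG2 receptors of natural killer cells in the mouse. It stood at 73.6, 70.9 and 69.4 FPKM in the shNC libraries, against 73.3, 78.7 and 81.8 FPKM in shERO1A. KD2 and KD3 lay above all shNC libraries, while KD1 fell within their range. The means were 71.3 ± 2.11 and 77.9 ± 4.29 FPKM (SD, n = 3), a log2 fold change of 0.13 with an interval from 0.00 to 0.25 (limma adjusted p = 0.148). Only with weights for each library, where KD3 had the lowest weight (0.135), did it pass (adjusted p = 0.0109, in a range up to 0.382).

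Heavy chain genes resemble each other, so part of their reads is uncertain. Of all stretches of 100 bases in the longest GENCODE M21 coding transcript, none of H2-K1 occurred in a transcript of another gene, beside 4.64% for H2-D1, 2.66% for H2-Q4 and 7.28% for H2-T23. The transcript searched had 1619 bases for H2-K1 and 2102 for H2-D1, while the values imply 2182 and 1736 bases. The bases searched are therefore not exactly those counted. The read length is not given in the sources used here.

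**Figure D2:**
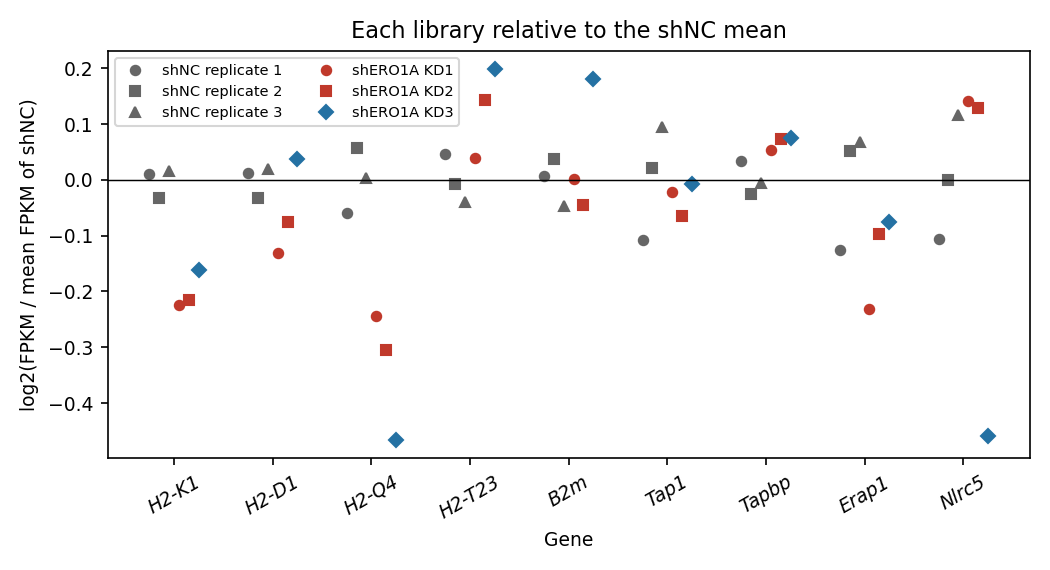
Level of the 9 tested members in each library as log2 of FPKM over the shNC mean; grey points are shNC libraries, red KD1 and KD2, blue KD3. The 3 shERO1A libraries lie below all shNC libraries for H2-K1 and H2-Q4, and KD3 lies apart from KD1 and KD2 for B2m and Nlrc5.

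B2m, the light chain that every one of these heavy chains needs to reach the surface, did not pass the test. It stood at 1844, 1884 and 1778 FPKM in the shNC libraries, against 1837, 1779 and 2080 FPKM in shERO1A. KD1 and KD2 lay within the shNC range and KD3 above it. The means were 1836 ± 53.4 and 1898 ± 160 FPKM (SD, n = 3), with a log2 fold change of 0.05 and an interval from -0.14 to 0.23 (limma adjusted p = 0.735). Without KD3 the log2 fold change was -0.02. B2m has the shortest gene length among the members, 858 bases as implied by its values, and KD3 was at 1.15 of the mean of KD1 and KD2. With a trend over gene length removed from every library, the log2 fold change was also -0.02.

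Among the loading genes, Tap1, Tapbp and Erap1 were measured well, and none of them passed the test. Tap1 stood at 19.2, 21.0 and 22.1 FPKM in the shNC libraries, against 20.4, 19.8 and 20.6 FPKM in shERO1A, all within the shNC range (log2 fold change -0.03, interval -0.17 to 0.11, limma adjusted p = 0.763). Tapbp stood at 91.6, 87.9 and 89.1 FPKM in the shNC libraries, against 92.9, 94.2 and 94.3 FPKM in shERO1A. Every shERO1A library of Tapbp lay above every shNC library, by little (log2 fold change 0.07, interval -0.03 to 0.16, adjusted p = 0.294). Erap1 stood at 8.52, 9.64 and 9.75 FPKM in the shNC libraries, against 7.92, 8.70 and 8.83 FPKM in shERO1A, with KD2 and KD3 inside the shNC range (log2 fold change -0.12, interval -0.28 to 0.04, adjusted p = 0.282). No alternative gave a call for any of the 3, with a lowest adjusted p of 0.0512 for Tapbp, 0.136 for Erap1 and 0.301 for Tap1.

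Tap2, the partner that Tap1 needs to form the transporter, was hardly expressed. It stood at 0.620, 0.451 and 0.323 FPKM in the shNC libraries, against 0.900, 0.606 and 0.436 FPKM in shERO1A, from 31 to 86 reads per library. The groups overlapped, with means of 0.465 ± 0.149 and 0.647 ± 0.235 FPKM (SD, n = 3). Without the filter on low values its log2 fold change was 0.16 (limma adjusted p = 0.458), and the authors' deposited table gives a q of 0.523. Per length, Tap1 was above Tap2 by 30.9, 46.6 and 68.2 times in shNC and 22.7, 32.6 and 47.4 times in shERO1A, ratios that overlapped.

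Nlrc5, the activator of the class I promoter unit, differed more between shERO1A libraries than between groups. It stood at 9.94, 10.7 and 11.6 FPKM in the shNC libraries, against 11.8, 11.7 and 7.78 FPKM in shERO1A. KD1 and KD2 lay above every shNC library and KD3 below every one. The means were 10.7 ± 0.809 and 10.4 ± 2.29 FPKM (SD, n = 3), with a log2 fold change of -0.06 and an interval from -0.39 to 0.27 (limma adjusted p = 0.805). Without KD3 the log2 fold change was 0.12 (interval -0.02 to 0.26, adjusted p = 0.194). The implied length of Nlrc5, 7916 bases, is the longest among the members and above 5718 bases, where KD3 had a median log2 ratio of -0.10. KD3 was at 0.663 of the mean of KD1 and KD2 for Nlrc5, and the part of gene length in this was not tested.

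**Figure D3:**
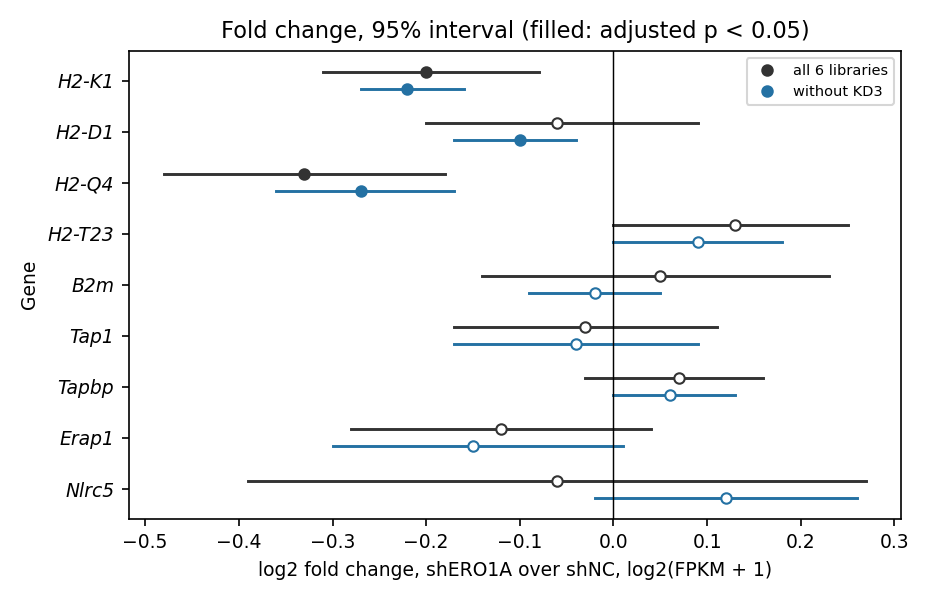
Log2 fold change of the 9 tested members in shERO1A over shNC with its 95% interval, from all 6 libraries (black) and without KD3 (blue); filled points passed an adjusted p under 0.05. H2-K1 and H2-Q4 lie below 0 in both fits, H2-D1 passes only without KD3, and the interval of Nlrc5 runs from -0.39 to 0.27.

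Ratios within a library do not depend on how libraries were scaled to each other. A shift with gene length, as seen in KD3, does not cancel in them where lengths differ. Implied lengths were 2182 bases for H2-K1, 1736 for H2-D1, 1793 for H2-Q4, 1317 for H2-T23 and 858 for B2m. The part of gene length in the ratios was not tested. H2-K1 stood at 0.661, 0.663 and 0.661 of the level of H2-D1 in shNC and at 0.621, 0.601 and 0.577 in shERO1A. The shNC libraries were nearly identical in this ratio, and all shERO1A libraries lay below them, KD3 included, although KD3 had the highest level of both genes in its group. H2-Q4 stood at 0.671, 0.755 and 0.744 of H2-T23 in shNC and at 0.594, 0.530 and 0.456 in shERO1A, also without overlap. The 4 heavy chains summed to 1515, 1475 and 1519 FPKM in shNC and to 1347, 1383 and 1465 FPKM in shERO1A. B2m exceeded that sum by 1.22, 1.28 and 1.17 times in shNC and by 1.36, 1.29 and 1.42 times in shERO1A, where KD2 and shNC replicate 2 almost touched. Of the summed heavy chain level, H2-K1 made up 36.6 ± 0.0642% in shNC and 34.3 ± 0.693% in shERO1A (SD, n = 3), H2-D1 55.3 ± 0.176% and 57.2 ± 0.977%, H2-T23 4.75 ± 0.153% and 5.57 ± 0.123%, and H2-Q4 3.43 ± 0.187% and 2.93 ± 0.351%. These ratios were chosen with the levels known and carry no test.

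**Figure D4:**
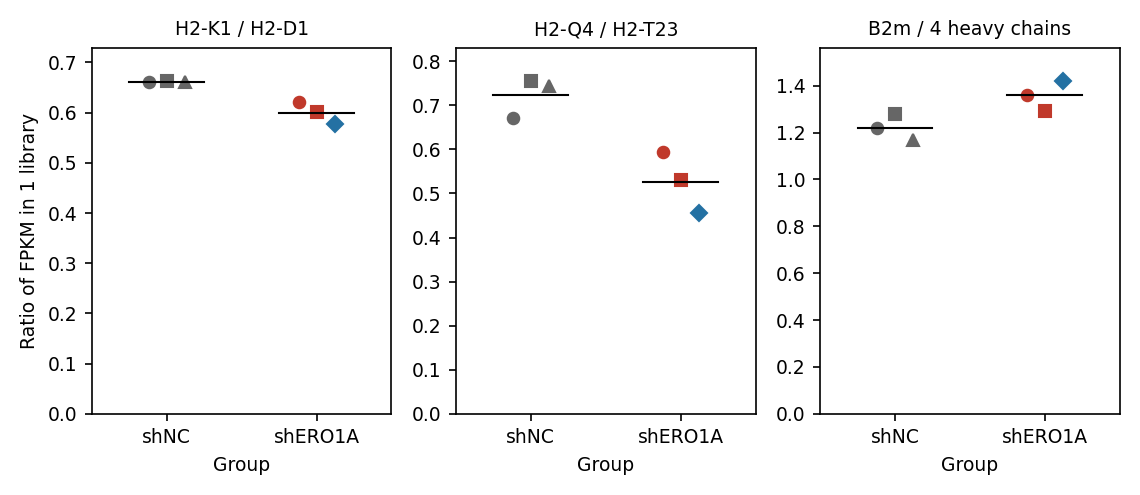
Ratio of FPKM within a library for H2-K1 over H2-D1, H2-Q4 over H2-T23 and B2m over the sum of the 4 heavy chains, by group; points are libraries (grey shNC, red KD1 and KD2, blue KD3), bars are group means and each axis starts at 0. The first 2 ratios are lower in all 3 shERO1A libraries, with means of 0.662 and 0.600 for H2-K1 over H2-D1, and the last is higher.

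The genes whose pattern over the 6 libraries was closest to that of H2-K1, by the root mean square difference in log2 FPKM relative to the shNC mean, included Me2 (0.018) and Cisd3 (0.021). Those closest to H2-Q4 were Epha4 (0.017), Dock11 (0.022) and Abhd2 (0.022). With 10296 genes and 6 libraries such closeness is a description only.

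Other genes of the pathway were read from 10 lists of 112 genes, of which 85 are in the table and 72 were tested. In shERO1A 6 rose and 7 fell, so 18.1% were called, close to the 17.7% of all genes, with a median log2 fold change of 0.01. These counts changed with single libraries. There were 1 to 2 rises and 1 to 2 falls when a shNC replicate or KD2 was left out. Without KD1 there were 10 rises and 3 falls, and without KD3 11 and 10. Over all tested genes, 976 rises and 847 falls became 488 to 610 and 458 to 578 without a shNC replicate or KD2. They became 856 and 793 without KD1, and 1515 and 1341 without KD3. By the q of the authors' deposited table, 14.4% of all genes were below 0.05, and of the listed genes 7 were higher and 6 lower.

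The interferon gamma receptor was lower in shERO1A. Of 12 genes of interferon receptors, kinases and feedback, 3 fell, 1 rose and 8 did not pass. Of all tested genes 8.23% fell and 9.48% rose. Ifngr2, the signalling chain of the receptor, stood at 33.4, 32.5 and 32.8 FPKM in the shNC libraries, against 22.4, 21.8 and 25.3 FPKM in shERO1A, and fell from 32.9 ± 0.411 to 23.1 ± 1.86 FPKM (SD, n = 3; log2 fold change -0.49, SE 0.06, limma adjusted p = 0.00134). Ifngr1, the ligand-binding chain, fell from 29.6 ± 1.20 to 23.7 ± 2.13 FPKM (adjusted p = 0.0186), and the receptor kinase Jak1 from 38.2 ± 0.634 to 34.0 ± 0.947 FPKM (adjusted p = 0.0343). In all 3 genes every shERO1A library lay below every shNC library, where 40.0% of tested genes showed no overlap in either direction. Usp18, an interferon-induced brake on the type I receptor, rose from 131 ± 1.74 to 206 ± 18.0 FPKM (adjusted p = 0.000549). Ifngr2 and Usp18 were called in each of the 14 alternatives. Ifngr1 missed the threshold when shNC replicate 1, shNC replicate 2 or KD2 was dropped (adjusted p = 0.0828, 0.0806 and 0.0643; lowest of all 9.25e-05), and Jak1 with any library but KD3 left out (adjusted p from 0.0528 to 0.135) and without an intensity trend (0.0573; lowest of all 0.00257).

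Among 21 tested genes of transcriptional control, 19 did not pass, where 17.7% of all tested genes were called. Rfxap, a subunit of the RFX complex, fell from 5.02 ± 0.117 to 4.08 ± 0.307 FPKM (SD, n = 3; limma adjusted p = 0.0373). Irf1 had means of 17.1 and 16.1 FPKM (limma adjusted p = 0.337). Irf7 had means of 156 and 182 FPKM (limma adjusted p = 0.0555), and its groups did not overlap, as in 40.0% of tested genes. Stat2 was low in KD3, as Nlrc5 was, at 46.6 and 43.0 FPKM in KD1 and KD2 and at 23.9 FPKM in KD3, beside 43.0 to 43.8 FPKM in shNC. The call of Rfxap was lost with any library but KD3 left out and in 4 other alternatives, over a range from 0.00585 to 0.129.

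Of 9 peptide loading chaperones, 1 fell and 8 did not pass, where 17.7% of all tested genes were called. Uggt1, which puts glucose back on unfolded glycoproteins so that they bind calreticulin again, stood at 23.8, 24.7 and 24.3 FPKM in the shNC libraries, against 21.6, 21.9 and 19.5 FPKM in shERO1A (limma adjusted p = 0.0418). Calr, the calreticulin of the loading complex, stood at 580, 583 and 573 FPKM in the shNC libraries, against 634, 657 and 672 FPKM in shERO1A. Its groups did not overlap, as in 40.0% of tested genes. Calr missed the threshold (log2 fold change 0.18, limma adjusted p = 0.0534, with 0.00262 without KD3 and 0.0956 with no filter). Pdia3, the partner of tapasin, had means of 260 ± 2.43 and 282 ± 18.3 FPKM (SD, n = 3; adjusted p = 0.210), and Canx, the calnexin gene, means of 153 and 147 FPKM (adjusted p = 0.385). Uggt1 lost its call with any library but KD3 left out (adjusted p from 0.0576 to 0.149), with no filter (0.0588) and without an intensity trend (0.0580; lowest of all 0.00510).

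Among proteasome genes and peptidases outside the endoplasmic reticulum, 1 of 9 and 2 of 8 tested genes were called (beside 17.7% of all genes). Of 9 proteasome genes, only Psmb8, a subunit of the immunoproteasome, passed, and it rose from 1.26, 1.79 and 1.23 FPKM in the shNC libraries to 2.15, 2.23 and 2.35 FPKM in the shERO1A libraries, 1.57 times the control mean (limma adjusted p = 0.0241). Psmb9, which lies next to Tap1 and shares its promoter region, had means of 4.15 and 4.70 FPKM (adjusted p = 0.586). Of 8 peptidases, Lap3, an interferon-inducible leucine aminopeptidase, rose from 38.8 ± 0.206 to 48.8 ± 4.64 FPKM (SD, n = 3; limma adjusted p = 0.0146), Rnpep, aminopeptidase B, fell to 0.885 of control (adjusted p = 0.0406), and 6 did not pass. Psmb8 lost its call without shNC replicate 1 or 3 or KD2 (adjusted p = 0.0971, 0.0961 and 0.0698), with limma-voom (0.0532) and in the authors' deposited table (q = 0.109; lowest of all 0.00340). Lap3 lost it without any single shNC replicate (0.0630, 0.0596 and 0.0643; lowest of all 0.000103), and Rnpep with any library but KD3 left out (0.0526 to 0.165) and without an intensity trend (0.0645; lowest of all 0.0134).

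Of 21 other heavy chain genes of the MHC region, 5 have a row and 3 were tested. H2-K2, H2-Q6 and H2-Q7 have no row but share stretches of 100 bases with members, so a missing row does not show missing expression. H2-T22 shares such stretches with H2-D1 and H2-T23. For this list and the next ones, the share called over all tested genes was 17.7%. H2-T22, a ligand of gamma delta T cells in the mouse, stood at 52.3, 55.3 and 52.1 FPKM in the shNC libraries, against 59.8, 60.7 and 72.0 FPKM in shERO1A, and rose to 1.20 of control (limma adjusted p = 0.0476). It lies, like H2-T23, in the T region. H2-T24 and H2-M3 did not pass. Outside the MHC, Hfe, a class I-like chain that pairs with B2m and binds the transferrin receptor, fell from 1.28 ± 0.0724 to 0.858 ± 0.123 FPKM (SD, n = 3; adjusted p = 0.0398), and the other 2 tested genes did not pass. Hfe was at 0.943, 0.717 and 0.913 FPKM in KD1, KD2 and KD3. It met the filter of 1 FPKM only through its shNC level, and with no filter its limma adjusted p was 0.0420. Of 6 tested genes for the turnover of surface molecules, 5 did not pass. Raet1e was the 1 ligand of the NKG2D receptor that could be tested, and it did not pass. The class II genes in the table summed to at most 1.28 FPKM in any library. H2-T22 lost its call without any library but KD1 and KD3 (adjusted p = 0.153, 0.102 and 0.159 without shNC replicates 1, 2 and 3 and 0.0688 without KD2), with no filter (0.0832) and without a trend (0.0645; lowest of all 0.00237). Hfe lost its call without any single shNC replicate or KD2 (adjusted p from 0.108 to 0.141) and with quantile normalization (0.0883; lowest of all 0.00141).

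**Figure D5:**
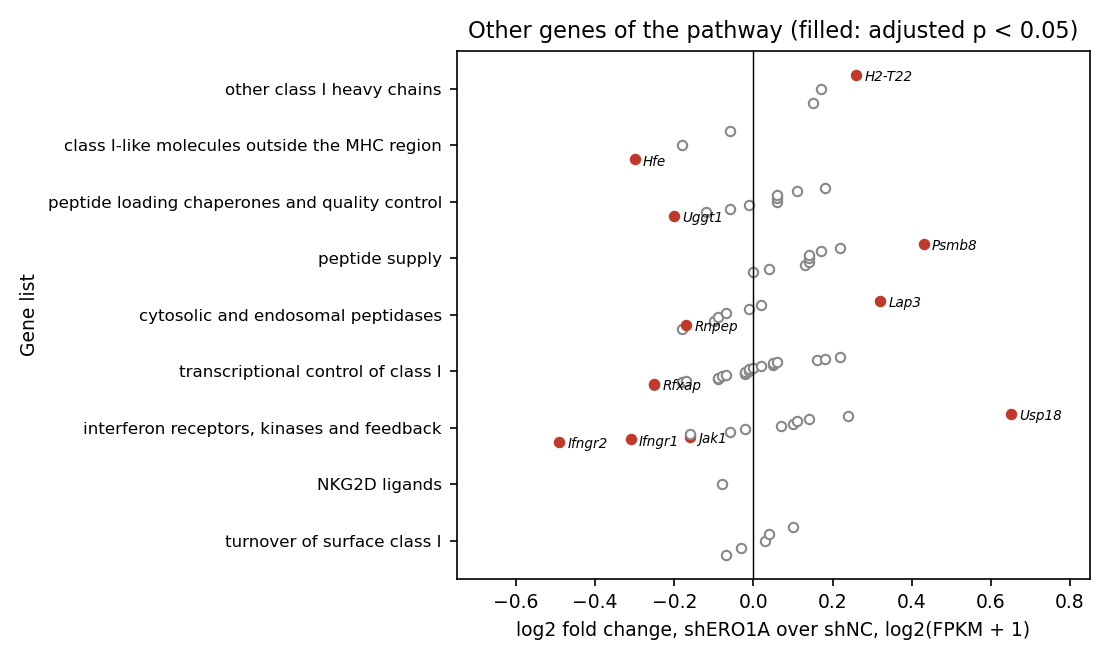
Log2 fold change of other tested genes of the pathway in shERO1A over shNC, grouped by list; each point is 1 gene, and filled, named points passed an adjusted p under 0.05. Of these, 4 lie to the right of 0, with Usp18 the farthest, and 7 to the left, with Ifngr2 the farthest.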

How the data were processed

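Reads were aligned with HISAT2 2.1.0 and counted with HTSeq 0.11.2 on mm39, tools and build that the submitters' processing notes name without roles; the sources used here do not give the annotation or strand setting. A single table was deposited. Its 6 library columns were taken as FPKM from the values, since the deposited header names no unit. Per the file headers, the authors made base means with DESeq2 (a signal of counts over size factors) and also a fold change ratio, a log2 fold change, a p-value and a q-value. The columns KD1 to KD3 name a group and no sample title.

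Whole reads were recovered from FPKM and base means (100% of 97302 values within 0.01 of a whole number). limma 3.58.1 in R 4.3.3 was run with an intensity trend and no covariate; the threshold was an adjusted p of 0.05. Both the recovery and the fit were tested on simulated data. The log2(FPKM + 1) scale shrinks the fold changes of low genes. Intervals are limma's, at 95% and unadjusted. Promoter sequences come from RefSeq on GRCm38.p6, another build than that of the files, and 8 of 10 members matched.

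The members and lists were chosen with earlier results of these data known. The members are named whatever their values, as are up to 4 called genes a list and the 3 genes of closest pattern for each called member; Calr, Pdia3, Canx, Psmb9, Irf1, Irf7 and Stat2 were added after their values were seen. A few genes that the lists or the rule name are not reported here, though the counts over all lists include them. The symbol Nrdc was matched to its older form Nrd1. Alternatives were limma-voom on recovered reads, the authors' q-values, a pseudocount of 0.1, no filter, quantile normalization, library weights, no intensity trend, each library left out, and, chosen after seeing the data, removal of a trend with gene length.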

Additional observations from a re-analysis of the deposited data

How the results depend on the processing

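Of the members, H2-K1, H2-Q4, H2-T23, H2-D1, Tapbp and Erap1 kept their direction in all 14 alternatives. Directions of members that were not called turned in a few: B2m had a log2 fold change of -0.03 with library weights, -0.02 without KD3 and -0.02 with the gene length trend removed (-0.02 to 0.09 with 1 library left out), Nlrc5 of 0.10 with library weights and 0.12 without KD3 (-0.15 to 0.12 with 1 library left out), and Tap1 of 0.01 without shNC replicate 3 (-0.08 to 0.01). With no filter 1 member was called as lower. Library weights gave 1 member higher, 16 listed pathway genes higher and 14 lower, and 2289 genes higher and 1930 lower over the whole table, where all 6 libraries with equal weight gave 976 and 847. With no intensity trend 4 listed genes were lower. With 1 library left out, 0 to 3 members were lower and none was higher, 1 to 11 listed genes were higher and 1 to 10 lower, and 488 to 1515 genes of the table were higher and 458 to 1341 lower. The cause of these shifts was not tested. No paired analysis was possible because nothing in the labels ties the numbers of the shERO1A columns to the sample titles or to the shNC replicates. Tap2 had 31 to 86 reads per library and every other member at least 1748.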
